A study of Mus musculus with 18 samples.

Results

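*Cdkn1a*, which encodes the cyclin-dependent kinase inhibitor p21, was examined together with 9 other genes that p53 is known to activate, *Mdm2*, *Ccng1*, *Trp53inp1*, *Phlda3*, *Eda2r*, *Sesn2*, *Btg2*, *Gdf15* and *Zmat3*. These 10 genes were taken by name from a table of 47729 genes, and all 10 were among the 16937 genes that passed a filter on low counts. The question was how *Cdkn1a* differed between the groups and whether it moved with the other targets. RNA was sequenced from bulk colon tissue, described as distal colon, of C57BL/6 mice. The mice were either WT or knockouts (*Cldn2*KO) of the gene for claudin-2, a pore-forming protein of epithelial tight junctions. In both genotypes, 1 group was labelled Control, 1 was in recovery after colitis caused by dextran sulfate sodium (DSS-Recovery in the labels), and 1 had received AOM/DSS, which models colitis-associated cancer with the carcinogen azoxymethane and cycles of DSS. The treatment note (azoxymethane at 10 mg/kg and 3 DSS cycles at 2.5%) stands on all samples, controls and recovery included, so treatment was taken from each sample's own treatment label. Each of the 6 groups had 3 libraries, 18 in all, and the age of the mice was not given in the sources used here.

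The transcription factor p53 is stabilized when DNA is damaged or a cell is otherwise stressed, and it binds paired copies of a short element near its target genes. Its targets stop the cell cycle, repair damage, limit p53 itself or start cell death. In the colon, p21 is also abundant in epithelial cells that have left the crypt base and stopped dividing, where other factors such as Klf4 also act on *Cdkn1a*.

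Total counts were between 17.6 and 27.4 M reads per library (median 19.6). *Cldn2* was at 44.5 to 504 CPM (counts per M reads after TMM scaling) in the 9 WT libraries and at 0.0555 to 0.557 CPM in the 9 *Cldn2*KO libraries. *Hoxb13*, a gene of the most distal colon, exceeded 10 CPM in 11 libraries and was at 0.502 CPM or less in the other 7, which were the 6 recovery libraries and WT control replicate 2. *Xist*, transcribed in females, was at 865 CPM or more in 6 libraries, 4 of them in recovery and 2 in *Cldn2*KO AOM/DSS, and at 1.16 CPM or less in the other 12. All 6 controls had low *Xist*. The 7 libraries held 0 to 8 reads of *Hoxb13*. *Hoxb13* and *Xist* thus differed between the groups along with treatment, and their part in the results was not tested beyond the fits given.

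Promoter windows of 8 of the 10 genes were found in RefSeq (GRCm38.p6). They were searched for the p53 consensus half-site, a 10-base pattern that reads alike on both strands. Of the 8 genes, 3, namely *Cdkn1a*, *Mdm2* and *Ccng1*, had a half-site in the 250 bases before a start site. Among all 27025 genes of the table, 9.55% had a half-site in windows of 300 bases, as did 9 of 23 other p53 targets. The stretches before the start sites of the 3 genes are shown 5′ to 3′ because they hold these matches, with each half-site in capitals. The first is upstream of the first start of *Cdkn1a* (chr17:29090729-29090978, plus strand), the second is upstream of *Mdm2* (chr10:117710759-117711008, minus strand) and the third is upstream of *Ccng1* (chr11:40755287-40755536, minus strand).
Cdkn1a: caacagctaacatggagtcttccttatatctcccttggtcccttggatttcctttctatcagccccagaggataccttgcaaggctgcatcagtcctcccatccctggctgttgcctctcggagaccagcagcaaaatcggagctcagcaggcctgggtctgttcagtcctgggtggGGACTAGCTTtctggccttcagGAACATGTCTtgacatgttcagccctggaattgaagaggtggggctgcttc
Mdm2: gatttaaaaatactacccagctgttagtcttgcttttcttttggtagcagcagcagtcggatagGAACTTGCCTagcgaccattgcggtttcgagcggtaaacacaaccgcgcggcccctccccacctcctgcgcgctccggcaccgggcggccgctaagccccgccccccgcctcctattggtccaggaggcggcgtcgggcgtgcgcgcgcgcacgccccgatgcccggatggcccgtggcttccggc
Ccng1: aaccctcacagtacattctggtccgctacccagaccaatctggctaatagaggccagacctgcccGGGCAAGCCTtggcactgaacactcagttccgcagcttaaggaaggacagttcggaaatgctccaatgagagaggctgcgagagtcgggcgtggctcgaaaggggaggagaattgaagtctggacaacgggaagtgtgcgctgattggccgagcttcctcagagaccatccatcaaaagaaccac
*Cdkn1a* was the only one of the 8 with a pair of half-sites at most 13 bases apart. They began 73 and 51 bases before the start, with 12 bases between them, and 0.074% of all genes in the table had such a pair. The window of the second *Cdkn1a* start, 2790 bases further on, had no half-site, nor did those of *Phlda3*, *Eda2r*, *Sesn2*, *Btg2* and *Gdf15*. These matches describe the letters of the windows and were not tested for binding. *Trp53inp1* and *Zmat3* were not searched here.

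Per length, *Cdkn1a* was the most abundant of the 10 genes, with a median of 85.6 RPKM over 18 libraries (reads per kilobase of exon per M reads). It was followed by *Ccng1* (42.7), *Btg2* (39.2), *Trp53inp1* (23.9) and *Mdm2* (10.0 RPKM). *Phlda3* (5.12), *Sesn2* (2.47), *Gdf15* (2.05), *Zmat3* (1.87) and *Eda2r* (0.381 RPKM) were lower. *Sesn2* varied most across libraries, by 11.1 times between the lowest and the highest, and *Ccng1* varied least, by 1.65 times. *Cdkn1a* varied by 2.89 times. *Sesn2* overlaps a predicted gene on the same strand, *Gm12981*, which had 32 reads in all libraries against 4359 for *Sesn2*.

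**Figure D1:**
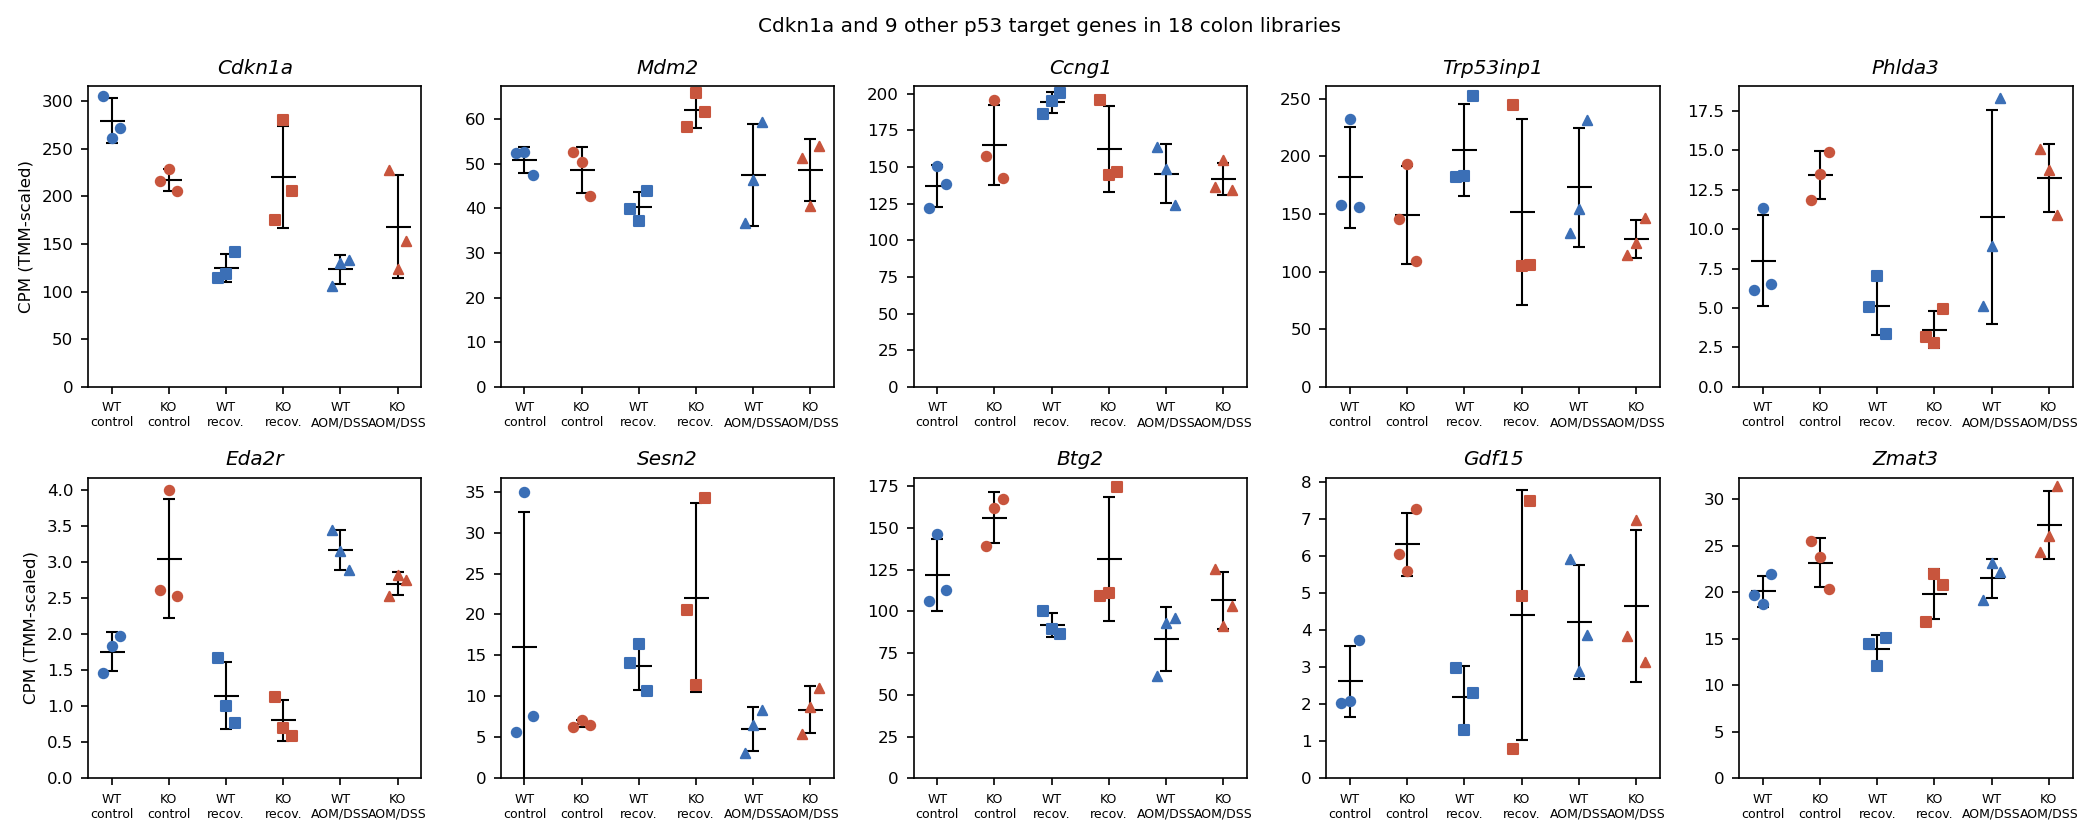
Level of each of the 10 genes (y axis, CPM from 0) in each of 18 libraries by group (x axis; WT blue, KO is *Cldn2*KO in red; points are libraries, bars the group mean and SD, n = 3, cut at 0 for *Sesn2* in WT controls). *Cdkn1a* was lower in WT recovery and WT AOM/DSS, at 106 to 142 CPM, than in WT controls, at 261 to 306 CPM.

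*Cdkn1a* (ENSMUSG00000023067, GRCm38 chr17:29090979-29100722, plus strand) measured 306, 261 and 271 CPM across WT controls, against 114, 118 and 142 CPM during WT recovery and 106, 130 and 133 CPM under WT AOM/DSS. The *Cldn2*KO libraries measured 216, 229 and 206 CPM for controls, 175, 280 and 206 CPM during recovery, and 228, 123 and 153 CPM under AOM/DSS. Every WT control was above every treated WT library, while the 3 *Cldn2*KO groups overlapped. By group mean the order was WT control (279 ± 23.5, SD, n = 3 for each group), *Cldn2*KO recovery (220 ± 53.7), *Cldn2*KO control (217 ± 11.7), *Cldn2*KO AOM/DSS (168 ± 53.9), WT recovery (125 ± 14.8) and WT AOM/DSS (123 ± 15.1 CPM). Neighbours in this order overlapped in their libraries.

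In WT mice, *Cdkn1a* fell with both treatments. From control to recovery it was 2.24-fold lower (-1.16 ± 0.21 SE on the log2 scale, adjusted p = 0.00217 by edgeR), and from control to AOM/DSS it was 2.27-fold lower (-1.18 ± 0.21, edgeR adjusted p = 0.00824). Both comparisons share the WT controls, and in bulk tissue fewer cells of a type and less RNA per cell cannot be told apart. Without WT control replicate 2, the control with low *Hoxb13*, the log2 fold changes were -1.23 and -1.24 (edgeR adjusted p = 0.00147 and 0.0151). With a term for *Hoxb13* above 10 CPM they were -1.06 and -1.23 (edgeR adjusted p = 0.0308 and 0.0163), and with *Xist* as a covariate -1.11 and -1.18 (0.0159 and 0.0138). Within groups the *Hoxb13* term varied only in WT controls, through replicate 2. In effect it set WT recovery against that library alone and WT AOM/DSS against the other WT controls. It is therefore not a check apart from leaving replicate 2 out. The call in AOM/DSS was lost when only the 2 groups compared were fitted (-1.15, adjusted p = 0.155, against 2.51e-05 to 0.155 over all 15 alternatives), whereas the recovery call was kept in all 15 alternatives.

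In *Cldn2*KO mice, *Cdkn1a* did not pass the test in either treatment. The log2 fold change from control was 0.02 ± 0.21 in recovery (95% interval -0.42 to 0.46, edgeR adjusted p = 0.959) and -0.37 ± 0.21 in AOM/DSS (-0.81 to 0.07, adjusted p = 0.418). These values came with a spread of 175 to 280 CPM in recovery and 123 to 228 CPM in AOM/DSS. The difference between the genotypes in their response was tested directly and was not called. It was 1.18 ± 0.29 on the log2 scale for recovery (0.56 to 1.81, edgeR adjusted p = 0.0809) and 0.81 ± 0.29 for AOM/DSS (0.19 to 1.44, adjusted p = 0.503).

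Compared directly with WT within a treatment, the log2 fold changes of *Cdkn1a* were -0.37 ± 0.21 for controls (edgeR adjusted p = 0.495), 0.82 ± 0.21 for recovery (0.0633) and 0.45 ± 0.21 for AOM/DSS (0.862). None was called, although the libraries of the genotypes did not overlap in controls or in recovery. The recovery difference depended on single libraries of the *Cldn2*KO group. It was 0.96 without replicate 1 (edgeR adjusted p = 0.0357) and 0.61 without replicate 2 (adjusted p = 0.29). Replicate 1 was also the only library of that group with low *Xist*, 0.643 CPM against 1391 CPM or more. DESeq2 and limma-voom called the difference (adjusted p = 0.0116 and 0.00978), as did the fit with a *Hoxb13* term (0.0485), which made 4 of 15 alternatives with adjusted p between 0.00978 and 0.29. Both recovery groups had low *Hoxb13*, so that term left the log2 fold change at 0.82 and altered only the estimated spread.

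*Mdm2*, the ubiquitin ligase that limits p53, measured 52.5, 52.6 and 47.5 CPM across WT controls and 39.8, 37.2 and 43.8 CPM during WT recovery. The *Cldn2*KO values were 52.6, 50.5 and 42.7 CPM for controls and 58.3, 66.0 and 61.7 CPM during recovery. All *Cldn2*KO recovery libraries were above the other 3 groups, and WT recovery was below WT controls but overlapped with *Cldn2*KO controls. In AOM/DSS the genotypes overlapped, at 36.6, 46.3 and 59.4 CPM in WT and 51.3, 40.7 and 54.0 CPM in *Cldn2*KO. No comparison of *Mdm2* was called by edgeR. *Cldn2*KO against WT in recovery gave 0.62 ± 0.16 (edgeR adjusted p = 0.0646, and 0.0132 to 0.274 over 15 alternatives, 2 of which called it).

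*Zmat3*, an RNA-binding protein gene, was the second gene that fell in WT recovery. WT controls had 19.7, 18.7 and 21.9 CPM, WT recovery libraries 14.4, 12.1 and 15.02 CPM, and WT AOM/DSS libraries 19.2, 23.2 and 22.1 CPM. The WT recovery libraries were below all others in the series. The fall from control was 0.54 on the log2 scale (-0.54 ± 0.16, edgeR adjusted p = 0.0242, called in 9 of 15 alternatives), and AOM/DSS was above recovery by 0.63 ± 0.16 (adjusted p = 0.0107, called in 13 of 15). In *Cldn2*KO mice *Zmat3* was at 25.5, 23.7 and 20.3 CPM in controls, 16.8, 21.9 and 20.8 CPM in recovery and 24.3, 26.0 and 31.3 CPM in AOM/DSS, and edgeR called no comparison. AOM/DSS against recovery gave 0.46 ± 0.16 there (edgeR adjusted p = 0.0540, and 0.0241 to 0.918 over 15 alternatives, 4 of which called it).

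*Ccng1*, which encodes cyclin G1, moved the other way. WT controls had 122, 151 and 139 CPM and WT recovery libraries 186, 195 and 201 CPM, so every recovery library was above every control. The log2 fold change was 0.50 ± 0.16 (edgeR adjusted p = 0.0333), but only 6 of 15 alternatives called it, with adjusted p up to 0.315. In WT AOM/DSS it was at 163, 149 and 124 CPM. The *Cldn2*KO libraries, at 157, 196 and 143 CPM in controls, 196, 145 and 147 CPM in recovery and 137, 155 and 135 CPM in AOM/DSS, overlapped between treatments and were not called by edgeR.

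*Phlda3*, an inhibitor of Akt signaling, and *Eda2r*, a receptor of the TNF receptor family, fell in *Cldn2*KO recovery. *Phlda3* went from 11.9, 13.5 and 14.9 CPM in *Cldn2*KO controls to 3.16, 2.78 and 4.97 CPM during recovery, with 15.1, 13.8 and 10.9 CPM under AOM/DSS. *Eda2r* went from 2.61, 3.99 and 2.53 CPM to 1.12, 0.696 and 0.59 CPM, with 2.52, 2.82 and 2.75 CPM in AOM/DSS. For both genes the recovery libraries lay below all libraries of the other 2 *Cldn2*KO groups. *Phlda3* was 3.69-fold lower in recovery than in controls (-1.88 ± 0.41, edgeR adjusted p = 0.00545) and 3.64-fold higher in AOM/DSS than in recovery (1.86 ± 0.41, adjusted p = 0.00741). *Eda2r* was 3.78-fold lower (-1.92 ± 0.34, adjusted p = 0.00165) and 3.35-fold higher (1.75 ± 0.34, adjusted p = 0.00381). With the *Hoxb13* term the standard errors were wider and all 4 calls were lost, while the log2 fold changes were -2.72 ± 0.66 and 2.70 ± 0.66 for *Phlda3* (edgeR adjusted p = 0.0737 and 0.158) and -2.02 ± 0.60 and 1.85 ± 0.60 for *Eda2r* (adjusted p = 0.146 and 0.337). With the *Hoxb13* term, 0.785% of all genes were called in recovery against control and 0.148% in AOM/DSS against recovery, beside 19.4% and 17.8% without it. The other 14 alternatives kept all 4 calls.

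In WT mice the same genes gave smaller estimates in both comparisons that involve recovery, but not in AOM/DSS against control. There the log2 fold changes were 0.44 ± 0.40 (*Phlda3*) and 0.85 ± 0.32 (*Eda2r*) in WT, and -0.02 ± 0.39 and -0.17 ± 0.32 in *Cldn2*KO, none called by edgeR. *Phlda3* libraries held 6.13, 11.3 and 6.53 CPM (controls), 5.05, 7.03 and 3.37 CPM (recovery) and 5.13, 8.93 and 18.3 CPM (AOM/DSS), and edgeR called no comparison, although 3 of 15 alternatives called AOM/DSS against recovery (1.07 ± 0.40, edgeR adjusted p = 0.0639, and 0.00986 to 0.388 over the alternatives). *Eda2r* libraries held 1.45, 1.83 and 1.97 CPM (controls), 1.67, 1.004 and 0.769 CPM (recovery) and 3.44, 3.15 and 2.88 CPM (AOM/DSS), where it was 2.71-fold above recovery (1.44 ± 0.33, edgeR adjusted p = 0.00743). With the *Hoxb13* term that difference was 1.54 ± 0.60 and was not called (edgeR adjusted p = 0.353), where 0.372% of all genes were called, against 24.3% without the term. The other 14 alternatives called the difference. The *Eda2r* AOM/DSS libraries did not overlap with either other WT group. Whether the recovery response differed between genotypes was tested and not called, at -1.25 ± 0.57 for *Phlda3* (edgeR adjusted p = 0.255) and -1.33 ± 0.47 for *Eda2r* (0.163).

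*Sesn2*, a stress-induced regulator of mTORC1, was uneven within groups. WT controls had 5.66, 34.96 and 7.62 CPM, where replicate 2 was above the highest library of any other group, and *Cldn2*KO controls had 6.26, 7.16 and 6.57 CPM. Recovery libraries had 14.04, 16.4 and 10.6 CPM (WT) and 20.5, 11.4 and 34.2 CPM (*Cldn2*KO), and AOM/DSS libraries 3.15, 6.52 and 8.37 CPM (WT) and 5.37, 8.76 and 11.03 CPM (*Cldn2*KO). Recovery libraries were above AOM/DSS libraries in each genotype without overlap. EdgeR called no comparison. *Cldn2*KO recovery against control gave 1.73 ± 0.59 (edgeR adjusted p = 0.0504, and 0.00888 to 0.753 over 15 alternatives, 4 of which called it), which became -0.67 with the *Hoxb13* term (adjusted p = 0.753), and WT recovery against control went from -0.23 to 1.02 without WT control replicate 2 (adjusted p = 0.81 and 0.105, and 0.0657 to 0.969 over 15 alternatives).

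*Btg2*, an antiproliferative gene, *Trp53inp1*, which promotes p53-dependent death and autophagy, and *Gdf15*, a secreted stress cytokine, were not called by edgeR in any comparison. Limma-voom called *Btg2* in *Cldn2*KO against WT controls (0.42, adjusted p = 0.0383) and in *Cldn2*KO AOM/DSS against control (-0.49, adjusted p = 0.0367), and no other alternative called any of the 3. *Btg2* ranged from 61.3 to 174 CPM and was at 100, 89.5 and 86.4 CPM in WT recovery against 109, 111 and 174 CPM in *Cldn2*KO recovery, which did not overlap (0.51 ± 0.21, edgeR adjusted p = 0.184). *Trp53inp1* ranged from 105 to 252 CPM, and its groups overlapped in all 9 comparisons. *Gdf15* was at 2.04, 2.10 and 3.73 CPM in WT controls against 6.06, 5.604 and 7.27 CPM in *Cldn2*KO controls, again without overlap (1.27 ± 0.57, adjusted p = 0.355).

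**Figure D2:**
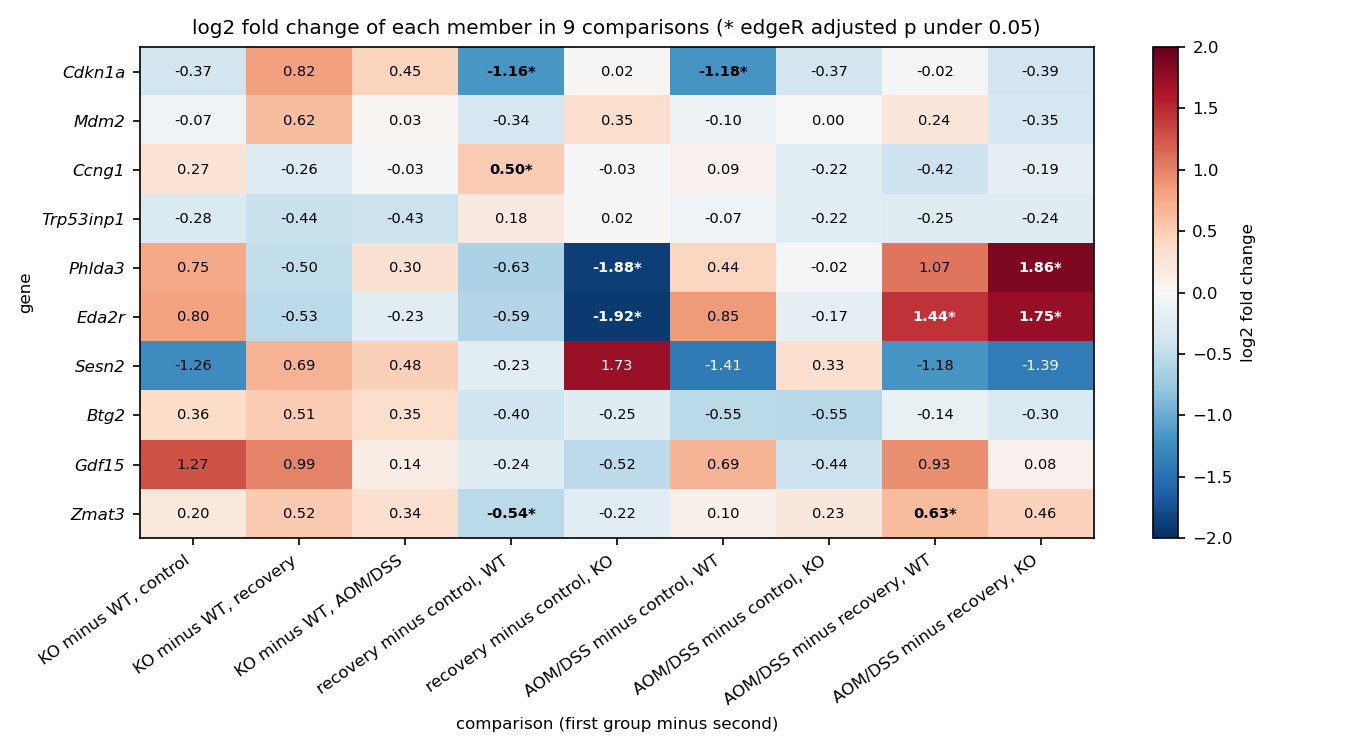
Log2 fold change of each gene (rows) in the 9 comparisons (columns, first group minus second; red higher, blue lower, * edgeR adjusted p under 0.05). *Cdkn1a* was called in 2 comparisons, both in WT mice, and *Phlda3* and *Eda2r* were called in both *Cldn2*KO comparisons that involve recovery.

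Counted over the 10 genes, WT recovery against control had 1 gene higher and 2 lower, beside 22.2% of all genes called (10% higher and 12.2% lower). *Cldn2*KO recovery against control had 0 higher and 2 lower, beside 19.4% (9.43% and 10%). WT AOM/DSS against control had 0 higher and 1 lower, beside 10.4% (3.81% and 6.58%). AOM/DSS against recovery had 2 higher and 0 lower in WT, beside 24.3% (12% and 12.4%), and 2 higher and 0 lower in *Cldn2*KO, beside 17.8% (9.11% and 8.66%). Each total rests on 1 to 3 genes and is close to the share over all genes. The median log2 fold change of the 10 genes from control was -0.37 in WT recovery and -0.12 in *Cldn2*KO recovery, and 0.01 and -0.20 in AOM/DSS, beside medians of -0.04 to 0.01 for all genes. For AOM/DSS against recovery it was 0.11 in WT and -0.22 in *Cldn2*KO, beside 0.04 and 0.02. Between the genotypes (*Cldn2*KO minus WT) the median was 0.24 for controls, 0.52 for recovery and 0.22 for AOM/DSS, beside -0.01, 0.00 and -0.00. Groups did not overlap for 5 of the 10 genes in WT recovery against control (37.7% of all genes) and 4 in *Cldn2*KO (40.3%), for 3 in WT AOM/DSS against control (32.2%) and 1, *Btg2*, in *Cldn2*KO (29.1%), and for 4 in WT AOM/DSS against recovery (38.5%) and 5 in *Cldn2*KO (37.4%).

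The genotype comparisons gave 0 of 10 genes by edgeR in each treatment, beside 1.17% of all genes called for controls, 0.974% for recovery and 0.0059% for AOM/DSS. At an unadjusted p under 0.05 there were 3, 4 and 2 of the 10, beside 13.1%, 19.9% and 5.6% of all genes. DESeq2 called 0, 3 and 0 of the 10, beside 4.07%, 8% and 0.0237% of all genes, and limma-voom 3, 2 and 0, beside 14.9%, 11.2% and 0.0059%. *Cldn2*KO AOM/DSS against control also gave 0 by edgeR (0.195% of all genes), with 1 at an unadjusted p under 0.05 (15.2%), 0 by DESeq2 (3.56%) and 1, *Btg2*, by limma-voom (18.1%). The interactions gave 0 by edgeR for recovery (0.13%) and AOM/DSS (0.0118%), with 6 and 3 at an unadjusted p under 0.05 (18.5% and 8.44%), 1 and 0 by DESeq2 (5.19% and 0.515%) and 3 and 0 by limma-voom (10.4% and 1.7%). In recovery the genotypes did not overlap for 4 genes, *Cdkn1a*, *Mdm2*, *Btg2* and *Zmat3*, all higher in *Cldn2*KO, beside 23.9% of all genes not overlapping. In controls 4 did not overlap, with *Cdkn1a* lower and *Phlda3*, *Eda2r* and *Gdf15* higher in *Cldn2*KO (22.3%), and in AOM/DSS 2, with *Eda2r* lower and *Zmat3* higher (11.3%).

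To ask whether *Cdkn1a* moved with the others from library to library, each gene's log2 CPM was taken as a deviation from its group mean, and *Cdkn1a* was compared with each of the 9 over the 18 libraries by an exact two-sided permutation within groups. *Mdm2* was closest, with Pearson r = 0.60 (exact p = 0.0196, 0.176 adjusted over 9) and Spearman rho = 0.62 (exact p = 0.0294, adjusted 0.132). Without the 2 libraries farthest from the median of *Cdkn1a*, r was 0.68. None of the 9 passed 0.05 after adjustment, and 5 of 9 were positive. *Zmat3* had r = 0.28 and *Btg2* 0.27, while *Ccng1* had -0.45, *Eda2r* -0.42 and *Sesn2* -0.35 (exact permutation p = 0.408, 0.438, 0.0986, 0.0859 and 0.18, adjusted 0.658, 0.658, 0.296, 0.296 and 0.406). *Gdf15* (0.07), *Phlda3* (0.02) and *Trp53inp1* (-0.18) had exact permutation p of 0.886, 0.933 and 0.622 (adjusted 0.933, 0.933 and 0.8). Spearman rho was 0.37 for *Zmat3*, 0.23 for *Btg2*, -0.39 for *Ccng1*, -0.55 for *Eda2r*, -0.35 for *Sesn2*, -0.09 for *Gdf15*, -0.12 for *Phlda3* and -0.11 for *Trp53inp1*, with adjusted exact permutation p of at least 0.132. Before adjustment the exact p of rho was 0.0268 for *Eda2r* and 0.159 or more for the other 7. Without the same 2 libraries, r was 0.50 for *Zmat3*, 0.33 for *Btg2*, -0.42 for *Ccng1*, -0.46 for *Eda2r*, -0.11 for *Sesn2*, 0.01 for *Gdf15*, 0.06 for *Phlda3* and 0.03 for *Trp53inp1*. Over all 16937 genes, r with *Cdkn1a* had a median of -0.03 and 5% and 95% points of -0.49 and 0.48.

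**Figure D3:**
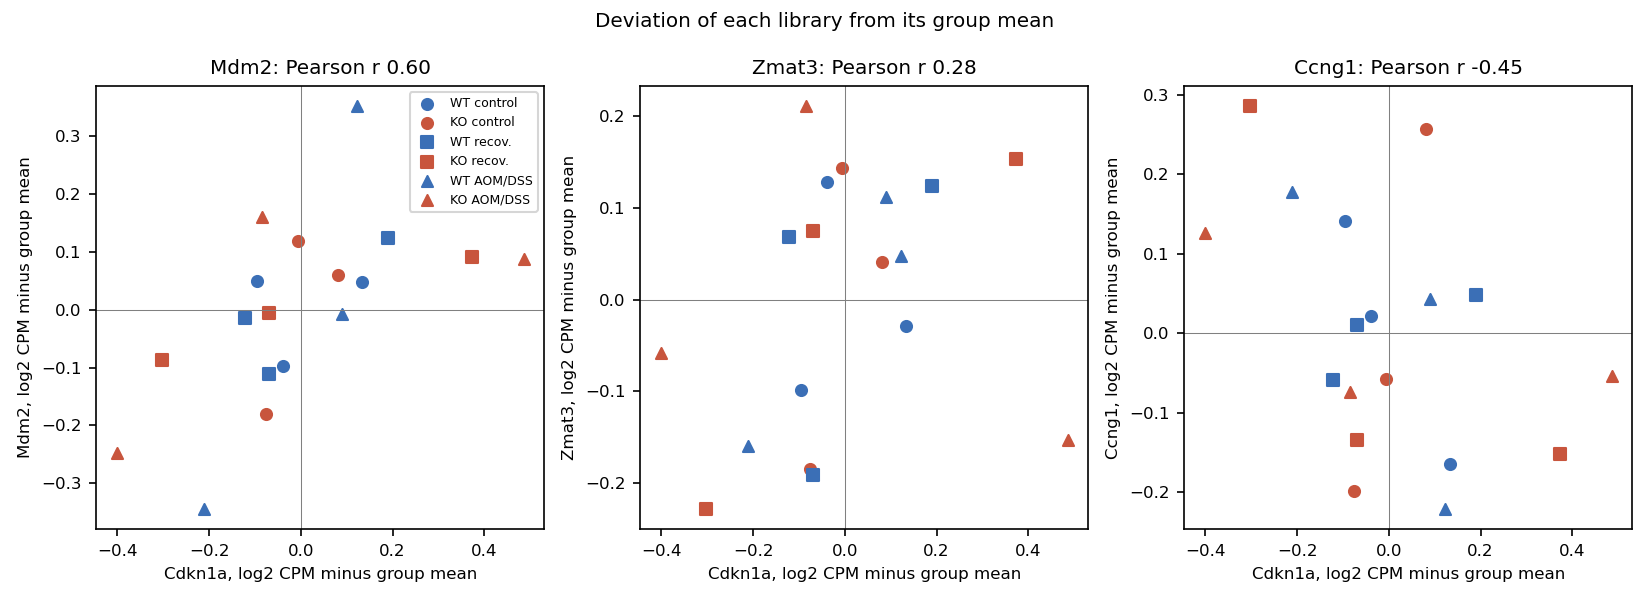
Deviation of *Cdkn1a* from its group mean (x axis, log2 CPM) against that of *Mdm2*, *Zmat3* and *Ccng1* (y axes, log2 CPM), 1 point for each of 18 libraries, color by genotype and shape by treatment. *Mdm2* leaned upward (r = 0.60) and *Ccng1* downward (r = -0.45), and neither passed the adjusted test.

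Among themselves the 10 genes gave 45 pairs, of which 23 had a positive within-group r, with a median of 0.02. These values are a description over 18 libraries that share depth, tissue makeup and group. The highest were *Phlda3* with *Btg2* (0.75), *Phlda3* with *Sesn2* (0.70) and *Sesn2* with *Btg2* (0.64), and the lowest was *Trp53inp1* with *Gdf15* (-0.68). The genes whose levels over 18 libraries were most like those of *Cdkn1a* were *Cd82* (r = 0.93), *Wbp2* (0.90), *Vamp3* (0.89), *Cblc* (0.88) and *Ezr* (0.88), none of which was among the 10. Over the same libraries *Btg2* had r = 0.67 and *Mdm2* 0.61 with *Cdkn1a*, and the other 7 lay between -0.40 (*Ccng1*) and 0.29 (*Zmat3*), beside 5% and 95% points of -0.53 and 0.55 over all genes. Within groups they were *Pde9a* (0.85), *Cd82* (0.84), *Snx12* (0.84), *Nudt18* (0.83) and *Smarcd1* (0.83).

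**Figure D4:**
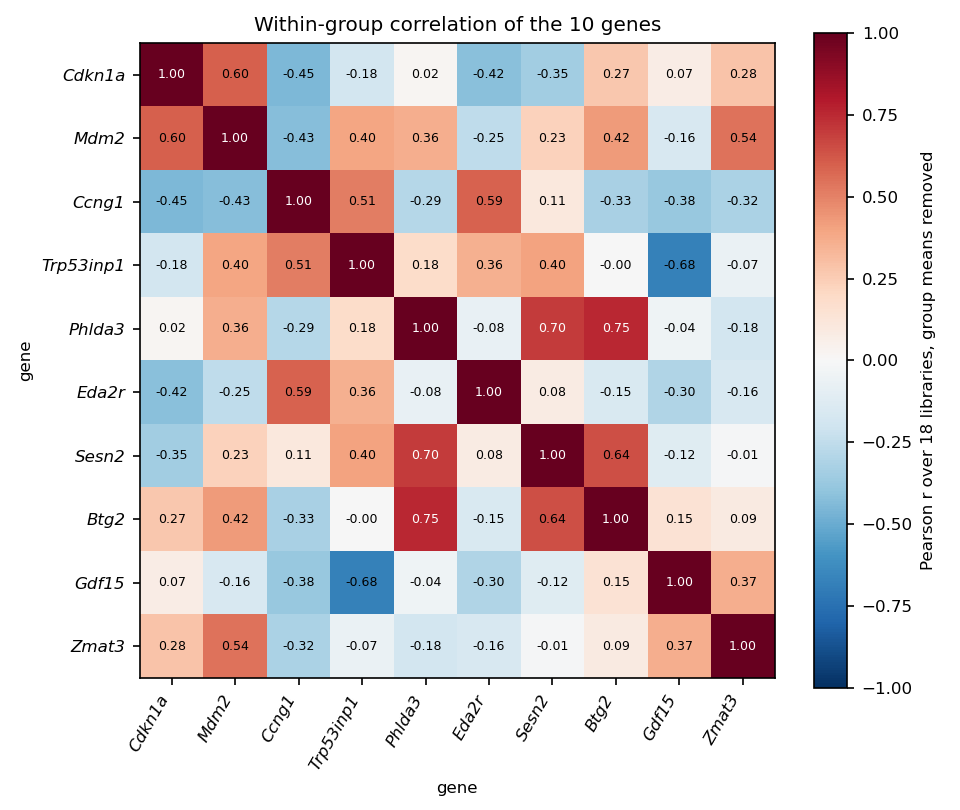
Pearson r between each pair of the 10 genes (both axes) over 18 libraries after group means were removed (red positive, blue negative). *Phlda3*, *Sesn2* and *Btg2* had r of 0.64 to 0.75 with each other, and *Cdkn1a* had its highest value with *Mdm2*.

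Of 29 other p53 targets tested, 1 rose and 2 fell in WT recovery, where 22.2% of all genes were called. *Rps27l*, a ribosomal protein paralog, rose by 0.71 ± 0.23 on the log2 scale, while the BH3-only gene *Pmaip1* (-1.12 ± 0.35) and the adenylate kinase gene *Ak1* (-1.10 ± 0.31) fell (edgeR adjusted p = 0.0375, 0.0312 and 0.0194). In *Cldn2*KO recovery (19.4% of all genes) 3 rose and 3 fell, among them *Epha2* (2.44 ± 0.81) and *Ak1* (-1.20 ± 0.31). In WT AOM/DSS against control (10.4%) 0 rose and 2 fell, *Plk3* (-1.83 ± 0.49) and *Ak1* (-1.35 ± 0.31). AOM/DSS against recovery had 2 higher and 4 lower in WT (24.3%) and 4 higher and 2 lower in *Cldn2*KO (17.8%). In the 3 genotype comparisons, in *Cldn2*KO AOM/DSS against control and in both interactions 0 were called by edgeR, with 5, 8, 1, 4, 5 and 0 of 29 at an unadjusted p under 0.05, beside 13.1%, 19.9%, 5.6%, 15.2%, 18.5% and 8.44% of all genes. The list's median was -0.01 in WT recovery and 0.07 in WT AOM/DSS, close to the -0.04 and 0.01 of all genes.

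Of 18 tested genes of p53 and its regulators, *Atr*, a DNA damage kinase, rose (0.62 ± 0.19) and *Ep300*, a coactivator, fell (-0.82 ± 0.20) in WT recovery (edgeR adjusted p = 0.0306 and 0.00945). *Trp53* itself was called in WT AOM/DSS against recovery, at 38.1 against 21.7 CPM (0.81 ± 0.25, adjusted p = 0.0307), where 4 of 18 were higher and 0 lower beside 24.3% of all genes called (12% higher). The list had 2 higher in WT AOM/DSS against control (10.4%) and 1 higher in each of *Cldn2*KO recovery against control (19.4%) and *Cldn2*KO AOM/DSS against recovery (17.8%).

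Of 20 factors known to act on *Cdkn1a*, 1 rose and 6 fell in WT recovery, where 22.2% of all genes tested were called. *Klf4*, a factor of differentiated epithelium, fell from 596 to 227 CPM (-1.39 ± 0.21, edgeR adjusted p = 0.000996), and *Smad4*, the TGF-β signal transducer, fell from 155 to 66.7 CPM (-1.21 ± 0.22, adjusted p = 0.00215). In *Cldn2*KO recovery, where *Cdkn1a* was not called, both also fell, with log2 fold changes of -0.84 ± 0.21 and -0.86 ± 0.22 (adjusted p = 0.0116 and 0.0123), with 2 of 20 higher and 2 lower in all beside 19.4% of all genes called. In WT AOM/DSS, with 10.4% of all genes called, 1 rose, *Myc* (1.57 ± 0.38), and 7 fell, including *Cdx2* (-2.66 ± 0.76) and *Vdr* (-1.31 ± 0.38). Between genotypes 1 of 20 was lower in *Cldn2*KO controls, *Irf1* (-0.96 ± 0.18, adjusted p = 0.0146), beside 1.17% of all genes called, and 1 of 20 was lower in recovery, beside 0.974%.

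Of 24 cell cycle genes that p21 is known to repress, *Pcna*, the DNA polymerase clamp, rose in WT recovery from 91.7 to 150 CPM (0.71 ± 0.21, edgeR adjusted p = 0.0249). *Pcna* was the only 1 of 24 called there, beside 22.2% of all genes. In the other 10 comparisons 0 of 24 were called by edgeR, beside 0.0059% to 24.3% of all genes. At an unadjusted p under 0.05 there were 3, 9 and 1 of 24 between the genotypes (controls, recovery, AOM/DSS), 1 in *Cldn2*KO AOM/DSS against control, and 2 and 1 for the interactions, beside 13.1%, 19.9%, 5.6%, 15.2%, 18.5% and 8.44% of all genes. In the remaining 4 comparisons there were 1 to 8, where 10.4% to 24.3% of all genes were called at the stricter adjusted p. In *Cldn2*KO against WT in recovery 23 of 24 had a negative log2 fold change (median -0.85, beside 0.00 over all genes). In *Cldn2*KO AOM/DSS against recovery 23 of 24 were positive (median 0.93, beside 0.02). The medians of the other comparisons lay between these, and both involve *Cldn2*KO recovery, whose libraries were uneven. The list's mean log2 CPM ranged from 4.18 to 5.45 in WT controls, from 4.62 to 5.23 in WT recovery and from 2.98 to 5.01 in *Cldn2*KO recovery, where 2 libraries were lower than all others. Of 6 other CDK inhibitors, 2 rose and 0 fell in WT recovery, beside 22.2% of all genes called (10% higher), *Cdkn1c* (1.86 ± 0.61) and *Cdkn2b* (0.66 ± 0.22) (adjusted p = 0.0393 and 0.0413).

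Tissue markers also differed between the groups compared. In WT recovery against control, where 22.2% of all genes were called, 2 of 18 differentiated colonocyte markers rose and 7 fell, 7 of 10 smooth muscle markers fell, 3 of 8 fibroblast markers fell, and 6 of 15 leukocyte markers fell. Of 11 crypt base markers 1 rose and 0 fell there. The summed level of the smooth muscle markers was 3824 to 5735 CPM in WT controls, 712 to 2108 CPM in WT recovery, 833 to 1473 CPM in *Cldn2*KO recovery and 569 to 2993 CPM in WT AOM/DSS. In *Cldn2*KO controls it was 7810 CPM or more. In WT AOM/DSS against control (10.4% of all genes), 0 of 18 colonocyte markers rose and 8 fell, and their sum was 36636 to 85748 CPM in WT controls against 16389 to 27715 CPM in WT AOM/DSS. In the same comparison 4 of 11 crypt base markers rose and 0 fell, 6 of 10 enteric neuron and glia markers fell, and 5 of 10 smooth muscle markers fell. All 7 posterior Hox genes tested fell in WT recovery. In *Cldn2*KO recovery against control (19.4%), where *Phlda3* and *Eda2r* fell, all 10 smooth muscle markers, 4 of 8 fibroblast markers and 6 of 7 posterior Hox genes fell, and 4 of 15 leukocyte markers rose and 4 fell. Of 18 colonocyte markers 4 rose and 3 fell there, and of 11 crypt base markers 2 rose and 1 fell. In WT AOM/DSS against recovery (24.3%), where *Eda2r* and *Zmat3* were higher, 7 of 15 leukocyte, 3 of 8 fibroblast, 3 of 11 crypt base and 1 of 10 smooth muscle markers and all 7 Hox genes were higher, and 8 of 18 colonocyte, 5 of 10 enteric neuron and glia, 2 of 15 leukocyte and 1 of 11 crypt base markers were lower. In *Cldn2*KO AOM/DSS against recovery (17.8%), 6 smooth muscle markers, 4 fibroblast markers, 6 Hox genes, 5 leukocyte markers and 3 crypt base markers were higher. There 8 colonocyte markers, 1 leukocyte marker, 1 crypt base marker and 1 enteric neuron and glia marker were lower. Beside the genotype comparisons, 4 of 15 leukocyte markers were lower in *Cldn2*KO controls (1.17%), with sums of 84.8 to 434 CPM against 879 to 1112 CPM in WT, and 1 of 15 was lower in *Cldn2*KO recovery (0.974%), with 62.6 to 79.2 CPM against 151 to 248.7 CPM. The part of these markers in the results for the 10 genes was not tested.

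**Figure D5:**
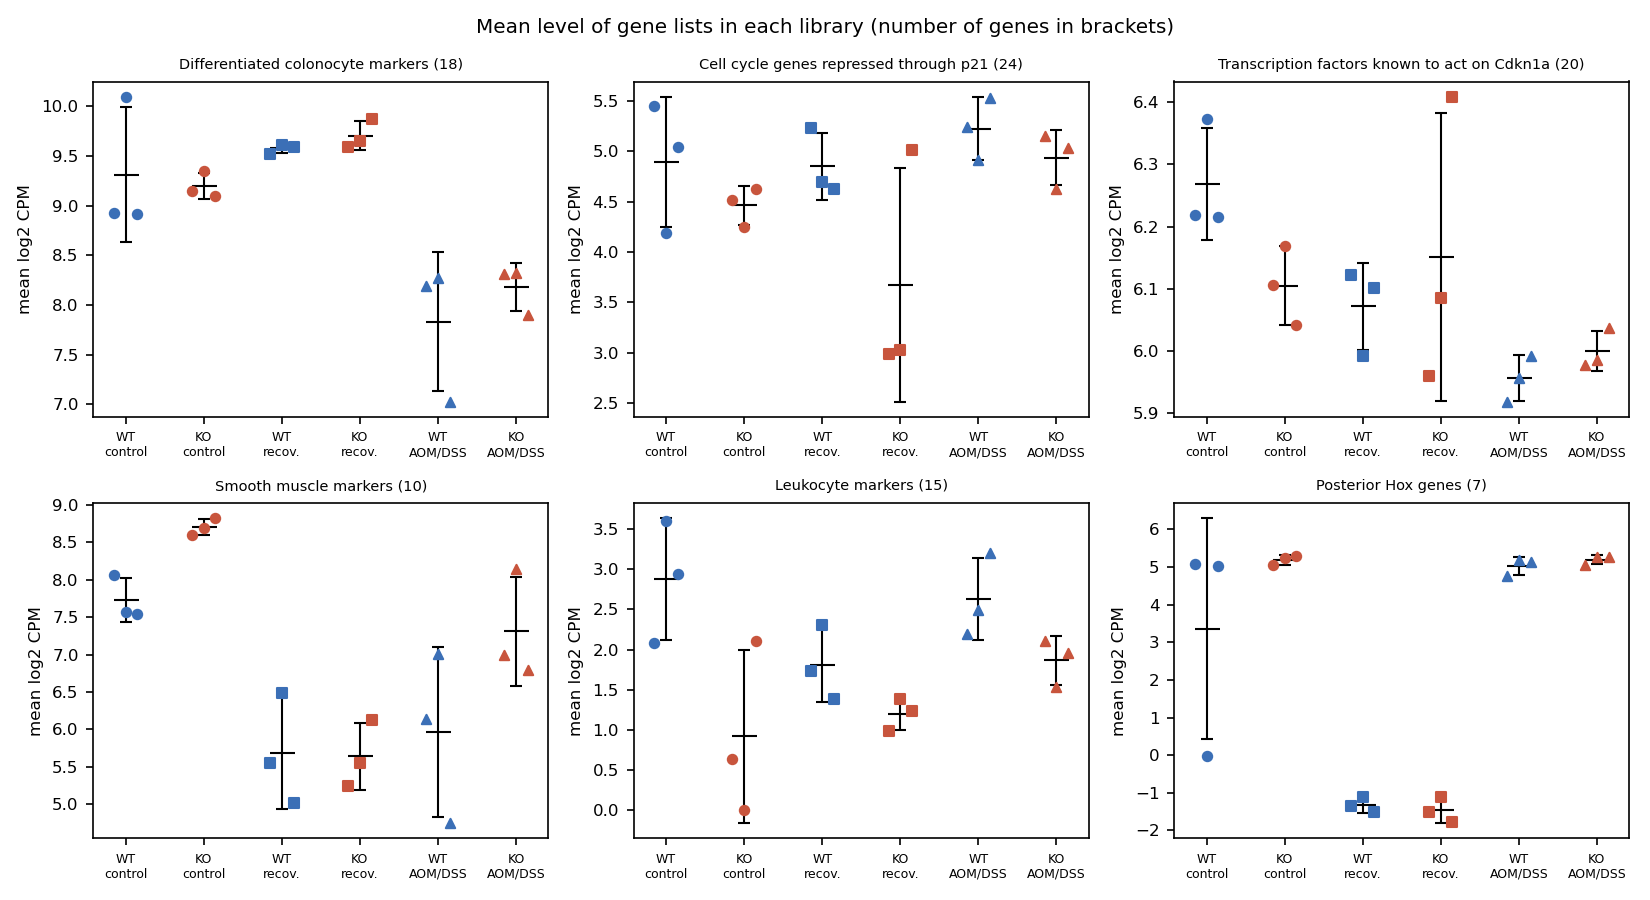
Mean log2 CPM (y axis) of 6 gene lists in each library by group (x axis; WT blue, *Cldn2*KO red; bars are group mean and SD, n = 3). The Hox list was low in the 6 recovery libraries and 1 WT control, and colonocyte markers were lowest in AOM/DSS.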

How the data were processed

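Gene counts were analysed for 18 mouse colon libraries. Per the paper, sequencing used an Illumina NovaSeq, and the authors assigned reads to genes with featureCounts from Subread. The paper names TopHat2 as the aligner and the submitters' processing notes name HISAT2 with GRCm38. The deposited file holds unnormalized whole-number counts in 36 columns, 2 lanes for each library, which were summed. Tool versions and strandedness were not given in the sources used here.

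Genes were filtered with filterByExpr, scaled with TMM and fitted with edgeR 4.0.16 (quasi-likelihood, robust; R 4.3.3) with a mean for each of 6 groups. Calls used a Benjamini-Hochberg adjusted p under 0.05 over 16937 genes, with 30792 dropped. The biological coefficient of variation was 0.315. Log2 CPM used a prior count of 2. Scripts were tested on simulated data. Libraries are the replicates; nothing in the labels ties them to separate mice, so p-values measure the spread between libraries, which may in part be technical. Replicate numbers outside the controls only name libraries.

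The 10 genes and all lists were chosen with earlier results of these data known. All 10 genes are named. From each other list, the genes named were taken from the up to 2 higher and 2 lower called genes per comparison with the largest log2 fold change and a mean of at least 1 CPM. Not all of these are named, and marker lists are given by counts only. Also named are the 5 genes most like *Cdkn1a* by Pearson r, passing over predicted genes. The result of 1 list gene is not reported here. Alternatives were RLE and upper-quartile scaling, other filters, DESeq2 1.42.0, limma-voom (limma 3.58.1), *Xist* and *Hoxb13* covariates, only the groups compared, each library left out, and a replicate block. *Trp53cor1*, *Trp63*, *Trp73*, *Fgf21* and *Hoxc13* did not pass the filter.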

Additional observations from a re-analysis of the deposited data

How the results depend on the processing

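Over 536 alternatives of the main results, 498 were counted as kept, 38 as changed, and 0 reversed a called value. For fold changes, kept meant the same direction and side of the threshold. A count of called genes could be kept although it changed, as from 3 to 2 in WT recovery against control with the *Xist* covariate. Where a fold change without a call changed sign it was counted as kept if it moved by less than 1 SE. For r, kept meant the same side of the threshold, or a move of less than 0.25 when a library was left out. These rules were set after the data were seen. Of 1602 alternatives for the other 9 genes, 1535 were kept, 22 lost a call, 26 gained one and 19 moved. In 87 of the 1602 the sign changed without a call in either fit, and these were counted as kept or moved.

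The count of called genes for *Cldn2*KO against WT was 3 in controls with limma-voom (14.9% of all genes called, against 1.17% by edgeR), and in recovery 3 with DESeq2 (8%), 2 with limma-voom (11.2%) and 1 with the *Hoxb13* term (3.18%, against 0.974%). *Cdkn1a* in that recovery comparison was then called, at 0.81 (DESeq2), 0.84 (limma-voom) and 0.82 (*Hoxb13* term). Its interaction in recovery was called by DESeq2 (1.17, adjusted p = 0.0123) and limma-voom (1.22, adjusted p = 0.00517), and the adjusted p reached 0.204 over its alternatives. The count for that interaction was then 1 and 3 (5.19% and 10.4% of all genes, against 0.13%). In WT recovery against control the count fell from 3 to 1 with no filter (9.48% of all genes called, against 22.2%), with the *Hoxb13* term (8.72%) and with only the groups compared. In *Cldn2*KO recovery against control it was 0 with the *Hoxb13* term (0.785% of all genes called, against 19.4%), where *Phlda3* stood at -2.72 ± 0.66 and *Eda2r* at -2.02 ± 0.60, with wider standard errors. In WT AOM/DSS against control it was 2 with DESeq2 and limma-voom (17.9% and 15% of all genes, against 10.4%) and 0 with only the groups compared, where *Cdkn1a* stood at -1.15. In *Cldn2*KO it was 1 with limma-voom (18.1%, against 0.195%). In WT AOM/DSS against recovery it was 4 with DESeq2 (29.1% of all genes), 5 with limma-voom (35.7%), 0 with the *Hoxb13* term (0.372%, against 24.3%) and 1 with only the groups compared. In *Cldn2*KO it was 0 with the *Hoxb13* term (0.148%, against 17.8%). No share over all genes was computed for fits to only the groups compared or without a library. The cause of these changes was not tested. All recovery libraries had low *Hoxb13*, so in comparisons of recovery with another treatment the *Hoxb13* term was set by WT control replicate 2 alone. In WT AOM/DSS against control it in effect left that library out. In *Cldn2*KO against WT in recovery it could not change the estimate.

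With each library left out in turn, the count was 0 to 1 for *Cldn2*KO against WT in recovery (1 without *Cldn2*KO recovery replicate 1), 1 to 3 for WT recovery against control (1 without WT control replicate 1 or 3 or WT recovery replicate 2), 2 to 4 for WT AOM/DSS against recovery (4 without WT AOM/DSS replicate 1), and 0 to 1 for the recovery interaction (1 without *Cldn2*KO recovery replicate 1). *Cdkn1a* ranged from 0.61 to 0.96 in *Cldn2*KO against WT in recovery and from 0.15 to 0.64 in AOM/DSS, from -0.64 to -0.15 in *Cldn2*KO AOM/DSS against control, from 0.53 to 1.02 for the AOM/DSS interaction, from -0.19 to 0.16 in *Cldn2*KO recovery against control (-0.19 without recovery replicate 2), from -0.65 to -0.17 in *Cldn2*KO AOM/DSS against recovery (called without AOM/DSS replicate 1, adjusted p = 0.0499, and up to 0.83 over its alternatives), and from 0.97 to 1.32 for the recovery interaction (called without *Cldn2*KO recovery replicate 1, adjusted p = 0.0392). Its r within groups ranged from -0.29 to 0.15 with *Trp53inp1* and from -0.50 to 0.29 with *Gdf15*, both ends set by leaving out single libraries, and from 0.11 to 0.71 with *Zmat3* (0.71 without *Cldn2*KO AOM/DSS replicate 1).

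The numbered controls could be blocked by replicate number. Same-numbered controls had correlations of 0.16, 0.00 and 0.08, so the numbers were not taken to pair them. With the replicate block, *Cldn2*KO against WT in controls called 0 genes, and *Cdkn1a* was -0.37 (edgeR adjusted p = 0.414).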

Other observations

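Of 19 tested targets of the stress factor ATF4, which also acts on *Sesn2*, 5 rose and 1 fell in WT recovery against control, where 22.2% of all genes tested were called, and 4 rose and 0 fell in *Cldn2*KO, where 19.4% were. *Nupr1*, a stress-induced chromatin protein gene, went from 61.7 to 906 CPM in WT (3.88 ± 0.59, edgeR adjusted p = 0.000999) and from 74.7 to 363 CPM in *Cldn2*KO (2.28 ± 0.55, adjusted p = 0.00966). *Vldlr*, a lipoprotein receptor gene, went from 19.9 to 89.6 CPM in WT (2.18 ± 0.40, adjusted p = 0.00239) and from 19.5 to 139 CPM in *Cldn2*KO (2.84 ± 0.41, adjusted p = 0.000573). Of 18 immediate early genes, 0 rose and 4 fell in WT recovery, among them *Fos*, from 168 to 41.5 CPM (-2.01 ± 0.64, adjusted p = 0.0351). In *Cldn2*KO recovery against control 1 rose and 0 fell. In *Cldn2*KO against WT in recovery edgeR called 0 of 18, beside 0.974% of all genes, and 7 had an unadjusted p under 0.05, beside 19.9%. All 18 were higher in *Cldn2*KO, with a median log2 fold change of 0.77 beside 0.00 over all genes tested. The list's mean log2 CPM was 3.76 to 3.90 in WT recovery, and *Cldn2*KO recovery replicate 1, at 3.81, lay within that range, while replicates 2 and 3 were at 4.98 and 5.28. Recovery libraries also differed in *Hoxb13* from the controls other than WT control replicate 2, but both recovery groups were low in it. *Cldn2*KO recovery replicate 1 had low *Xist*, at 0.643 CPM, while replicates 2 and 3 had high *Xist*. The part of either gene was not tested here.

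The 7 libraries with low *Hoxb13* and the other 11 are not groups of the study, and the ranges here are a description chosen after the values were seen. *Sesn2* stood at 10.6 to 34.96 CPM in the 7 libraries and at 3.15 to 11.03 CPM in the 11, with 1 of the 11 above the lowest of the 7. *Eda2r* stood at 0.59 to 1.83 CPM in the 7 and at 1.45 to 3.99 CPM in the 11, with 1 of the 11 below the highest of the 7. *Cdkn1a* stood at 114 to 280 CPM in the 7 and at 106 to 306 CPM in the 11. Of the 7 libraries, 6 were recovery libraries, so low *Hoxb13* and recovery cannot be told apart.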
